A study of Mus musculus with 11 samples.

Results

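The 9 genes described here are imprinted regulators of fetal growth: H19, Dlk1, Mest, Peg3, Peg10, Plagl1, Cdkn1c, Grb10 and Meg3. They were measured in mammary tumours of MMTV-Neu+/- mice, in which the promoter of mouse mammary tumour virus drives Neu, a rat Erbb2 oncogene, in mammary epithelium. RNA of 5 tumours from mice treated with dimethylbenzanthracene (DMBA, a polycyclic hydrocarbon carcinogen) and of 6 tumours from untreated mice was hybridised on 2-colour arrays against a common reference RNA from whole mouse. Both groups carry the same transgene. Age, strain background and time are not given in the sources used here, nor is the makeup of the reference. Nothing states that each tumour is from a mouse of its own, so p-values cover the spread between samples alone, and that spread may be technical. Values are log2 ratios of tumour over reference, where both the log base and the direction are the likely ones and all signs and folds rest on them. Members were found by their gene symbol in the platform annotation. They have 16 of 45220 features in the table that holds all DMBA-treated tumours and 9 of 22575 features in the table that holds all untreated tumours, and all 9 genes are in both tables, out of 16351 genes that are.

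An imprinted gene is read from the copy inherited from a single parent, through DNA methylation laid down in egg or sperm. Many genes read from the paternal copy favour fetal growth and many read from the maternal copy restrain it, and most are strongly expressed in embryo and placenta and fall in adult tissue. Among the members, Mest, Dlk1, Peg3, Peg10 and Plagl1 are expressed from the paternal copy, and Cdkn1c, H19, Meg3 and (outside neurons) Grb10 from the maternal copy. The arrays do not tell the copies apart.

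All 9 genes were below the whole mouse reference in all 11 tumours, as were 23.1% of the genes in both tables (32.1% in the DMBA-treated and 29.1% in the untreated tumours taken alone). In a limma fit across all genes, which tests each mean ratio two-sidedly against 0 and calls a gene at a Benjamini-Hochberg adjusted p under 0.05, 9 of 9 were called lower in DMBA-treated tumours, where 31.7% of all genes were called lower and 57.8% in either direction. In untreated tumours 9 of 9 were called lower, where 32.1% of all genes were and 60.9% in either direction. Of all genes in both tables, 24.8% were called lower in both groups. At least 2-fold lower were 9 of 9 members in DMBA-treated tumours (18.8% of all genes) and 7 of 9 in untreated tumours (15.6% of all genes), where Grb10 and Peg10 were closer to the reference. The median of the members' mean log2 ratios was -3.29 in DMBA-treated and -3.20 in untreated tumours, beside medians over all genes of -0.02 and 0.0. The DMBA median is the value of Plagl1, an average of discordant features. It was -3.21 over the 8 members without Plagl1 (-3.57 in untreated tumours) and -2.23 when only features with a transcript number found in both tables were averaged. The members were chosen with earlier results of these data known, so these counts describe the list and are no test of it.

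**Figure D1:**
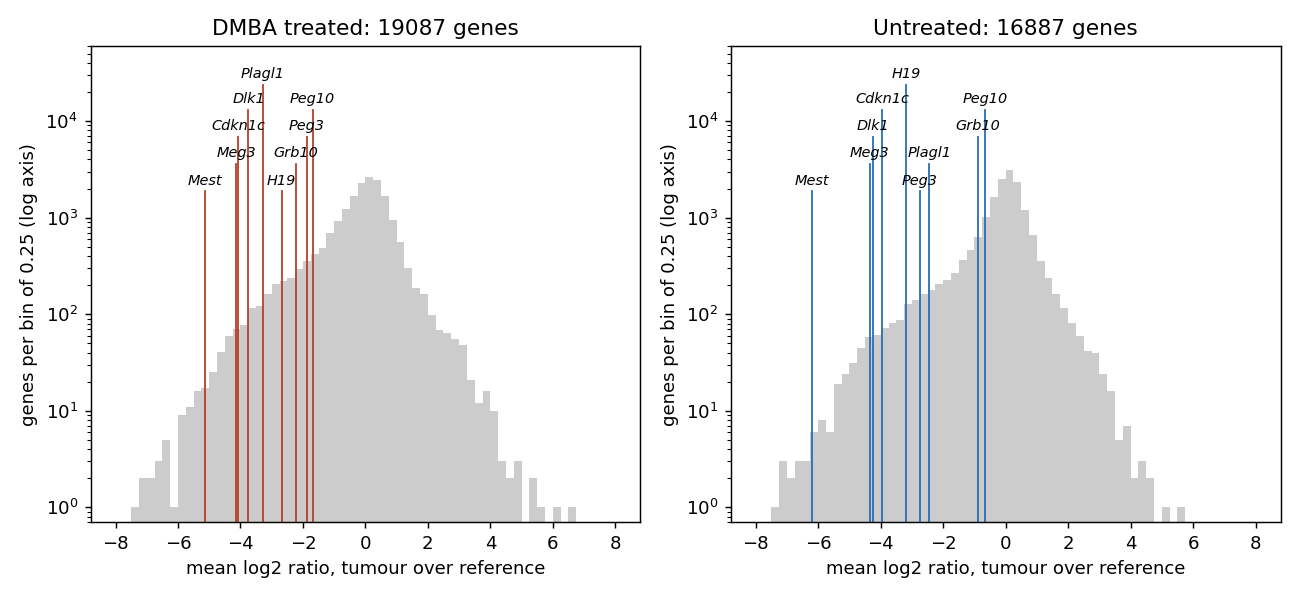
Histograms of the mean log2 ratio (tumour over whole mouse reference, horizontal axis) of all genes in the table of DMBA-treated tumours (left) and of untreated tumours (right), with the number of genes per bin on a log axis and the 9 imprinted growth genes as vertical lines. All 9 lines lie below 0 in both panels, with Mest lowest and Peg10 closest to 0.

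RefSeq promoter windows (assembly GRCm38.p6, 250 bases before to 50 after a gene start) were at hand for 6 of the 9 genes, in 10 windows. The windows of Mest, Plagl1, Meg3 and Dlk1 are printed because Mest and Meg3 had the lowest ratios in both groups, Dlk1 and Meg3 are neighbours on chromosome 12 that are read from opposite parental copies, and Plagl1 is the gene whose array features differed most. The capitals mark TGCCGC or its reverse complement GCGGCA, the word that the imprint-keeping protein ZFP57 binds when it is methylated. Where a gene has several windows, the window with most CpG pairs is shown. Every sequence is written 5′ to 3′ on the gene's own strand, which is the plus strand for these 4 genes.
Mest, chr6:30737800-30738099: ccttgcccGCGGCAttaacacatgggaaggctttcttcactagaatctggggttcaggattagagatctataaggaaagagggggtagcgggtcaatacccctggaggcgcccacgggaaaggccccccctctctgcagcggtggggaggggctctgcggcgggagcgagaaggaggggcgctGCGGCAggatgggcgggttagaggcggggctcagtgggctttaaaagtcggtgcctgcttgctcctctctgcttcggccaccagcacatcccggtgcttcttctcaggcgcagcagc
Plagl1, chr10:13090582-13090881: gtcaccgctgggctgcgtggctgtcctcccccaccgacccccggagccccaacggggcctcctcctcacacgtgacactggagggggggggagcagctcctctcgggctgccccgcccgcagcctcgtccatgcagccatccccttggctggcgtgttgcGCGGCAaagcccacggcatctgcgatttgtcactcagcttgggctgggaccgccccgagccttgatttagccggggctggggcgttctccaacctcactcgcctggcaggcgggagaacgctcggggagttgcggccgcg
Meg3, chr12:109540746-109541045: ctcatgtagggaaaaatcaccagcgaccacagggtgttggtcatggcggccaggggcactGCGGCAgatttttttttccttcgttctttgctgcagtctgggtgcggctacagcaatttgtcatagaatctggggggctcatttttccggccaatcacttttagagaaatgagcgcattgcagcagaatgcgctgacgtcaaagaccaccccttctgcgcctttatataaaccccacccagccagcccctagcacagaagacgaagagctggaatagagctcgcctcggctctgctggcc
Dlk1, chr12:109452573-109452872: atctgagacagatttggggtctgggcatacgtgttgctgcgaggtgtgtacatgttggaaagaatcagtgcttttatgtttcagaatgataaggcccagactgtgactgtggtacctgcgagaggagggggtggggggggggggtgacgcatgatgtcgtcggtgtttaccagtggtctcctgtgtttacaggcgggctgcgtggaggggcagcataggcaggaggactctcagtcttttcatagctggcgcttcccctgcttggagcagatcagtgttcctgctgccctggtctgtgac

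The word was found 2 times in the Mest window, 1 time in the Plagl1 window, 1 time in the Meg3 window and 0 times in the Dlk1 window. Of the 10 windows of members 5 held it, and they belong to 4 genes (Mest, Plagl1, Meg3 and Grb10), with 2 overlapping windows for Mest. Over all 32851 windows of the table, searched on both strands, 11.6% held it. The printed windows contained 17, 26, 13 and 9 CpG pairs for Mest, Plagl1, Meg3 and Dlk1, beside a median of 7 over all windows. Windows rich in CpG hold words with a CG more often, so the count is a description of the letters and not of binding.

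Mest, a paternally expressed gene that encodes a hydrolase-like protein of embryonic mesoderm, was the lowest member in both groups. Its log2 ratios in DMBA-treated tumours 1 to 5 were -4.88, -4.61, -5.26, -5.44 and -5.43, and every tumour placed it among the lowest 0.45% of genes. The mean was -5.12 ± 0.37 (SD, n = 5), or 34.9-fold below the reference (adjusted p = 1.14e-06). In untreated tumours the values ran from -6.75 over a median of -6.20 to -5.67, with a mean of -6.21 ± 0.39 (n = 6), 73.9-fold below the reference (adjusted p = 9.23e-10). The groups did not overlap for Mest, and the highest untreated value lay under the lowest DMBA value.

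Dlk1 encodes a transmembrane protein with EGF-like repeats, related to Notch ligands, which keeps preadipocytes immature. The 5 DMBA-treated tumours read -3.62, -3.54, -3.88, -3.97 and -3.71, a mean of -3.74 ± 0.18 (adjusted p = 1.09e-06). Untreated tumours read from -4.47 to -4.11 with a median of -4.18 and a mean of -4.24 ± 0.14 (n = 6, adjusted p = 5.68e-10). In the gene averages, Dlk1 varied least of the 9 genes from tumour to tumour, with an SD within groups of 0.16 pooled over both, at percentile 3.7 of the genes in both tables.

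Plagl1 encodes a zinc finger transcription factor that binds and regulates other imprinted genes. Its gene averages were -3.01, -2.69, -3.57, -2.97 and -4.21 in DMBA-treated tumours, a mean of -3.29 ± 0.60 (n = 5, adjusted p = 2.47e-05). They were -2.73 to -2.11 in untreated tumours, with a median of -2.50 and a mean of -2.45 ± 0.29 (n = 6, adjusted p = 1e-07). The DMBA mean rests on a pair of features that differ by 3.01 and is not the reading of either.

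Peg3, a zinc finger protein gene of placenta, brain and muscle progenitors, averaged -1.96, -2.58, -1.50, -1.62 and -1.73 in DMBA-treated tumours (mean -1.88 ± 0.43, n = 5, adjusted p = 0.000104). In untreated tumours it ranged from -3.36 to -1.74 with a median of -3.04 (mean -2.75 ± 0.65, n = 6, adjusted p = 3.46e-06). Untreated 6 and untreated 2, at -1.74 and -2.15, were above the other 4, which lay between -3.36 and -2.96.

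Peg10 derives from a retrotransposon and is needed to form the placenta. In the gene averages, Peg10 had the mean closest to the reference in both groups. In DMBA-treated tumours, though, Peg3 lay below Peg10 in only 3 of 5 tumours. With the first feature of each gene in place of the average, Peg3 was the closer there (-1.14 against -1.69). DMBA-treated tumours 1 to 5 read -2.93, -1.96, -1.82, -0.67 and -1.07, a mean of -1.69 ± 0.87 or 3.23-fold below the reference (adjusted p = 0.00315). This SD was the widest of the 9 genes in that group, but Peg10 has a single feature there and some other members are averages of several. Single features of Peg3 and Plagl1 spread more (SD 1.59 and 0.94). Untreated tumours read from -0.93 to -0.28 with a median of -0.79 and a mean of -0.67 ± 0.29, or 1.59-fold (n = 6, adjusted p = 0.000877). Tested against a ratio of 1.5-fold instead of 0, the untreated call ended (adjusted p = 0.759).

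**Figure D2:**
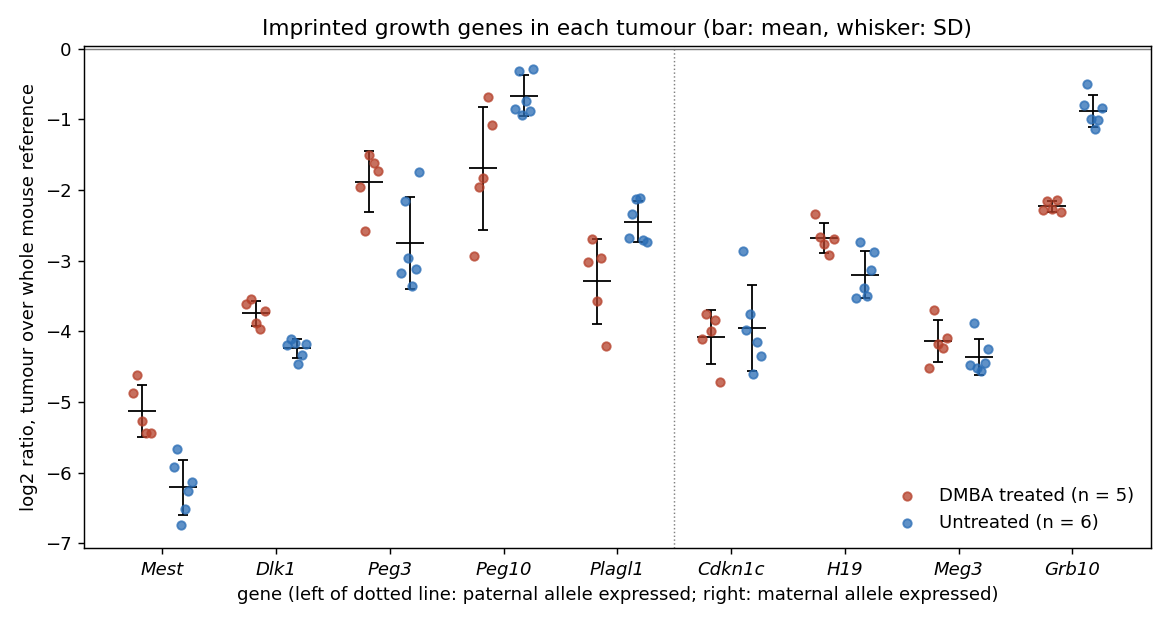
Log2 ratio of tumour over whole mouse reference (vertical axis) for each imprinted growth gene (horizontal axis) in 5 DMBA-treated tumours (red points) and 6 untreated tumours (blue points), with features of a gene averaged; horizontal bars are means and whiskers SD. Every point lies below 0, and the points of the groups do not overlap for Mest, Dlk1 and Grb10.

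Among the maternally expressed genes, Cdkn1c, an inhibitor of cyclin-dependent kinases that halts the cell cycle in the embryo, read -4.11, -3.75, -3.99, -3.83 and -4.71 in DMBA-treated tumours. The mean was -4.08 ± 0.38 (n = 5, 16.9-fold below the reference, adjusted p = 1.91e-06). Untreated tumours lay between -4.61 and -2.86 with a median of -4.07 and a mean of -3.95 ± 0.61 (n = 6, adjusted p = 1.64e-07). The highest value was that of untreated 1, and the other 5 untreated tumours were at -3.75 or lower. The groups overlapped, with means that differ by 0.13.

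Meg3, a long noncoding RNA of the Dlk1 locus, read -4.52, -3.70, -4.17, -4.24 and -4.09 in DMBA-treated tumours (mean -4.14 ± 0.30, n = 5, adjusted p = 1.28e-06). In untreated tumours the lowest, median and highest values were -4.56, -4.46 and -3.89 (mean -4.36 ± 0.25, n = 6, adjusted p = 1.36e-09). Its ratio lay near that of Dlk1, which is read from the opposite parental copy, in both groups. In DMBA-treated tumours it lay nearer still to that of Cdkn1c on chromosome 7, with means 0.06 apart.

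H19, a long noncoding RNA that shares its control region with the growth factor gene Igf2, averaged -2.34, -2.67, -2.77, -2.91 and -2.70 in DMBA-treated tumours, a mean of -2.68 ± 0.21 (n = 5, adjusted p = 2.69e-06). Untreated tumours ranged from -3.53 to -2.74 with a median of -3.26 and a mean of -3.20 ± 0.33 (n = 6, adjusted p = 2.66e-08). Igf2 itself, read from the paternal copy, was at -2.12 ± 0.22 (n = 5, 11 features averaged, adjusted p = 8.34e-06) and -2.58 ± 0.18 (n = 6, adjusted p = 1.33e-08). The receptor gene Igf2r, which clears that factor, had means above the reference at 1.03 ± 0.39 (n = 5, adjusted p = 0.00134) and 0.73 ± 0.67 (n = 6, adjusted p = 0.0158). Of the untreated tumours, 1 lay below the reference for Igf2r, at -0.40.

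Grb10 encodes an adaptor that binds the insulin and IGF receptors and dampens their signals. DMBA-treated tumours averaged -2.28, -2.15, -2.27, -2.14 and -2.31, a mean of -2.23 ± 0.08 (n = 5, adjusted p = 2.42e-06). Untreated tumours read from -1.14 to -0.50 with a median of -0.92 and a mean of -0.88 ± 0.23 (n = 6, adjusted p = 5.77e-05). The groups did not overlap in these averages.

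Each ratio sets a gene against its own level in the reference, so the order of the ratios is not an order of RNA levels. From the lowest ratio upwards the order in DMBA-treated tumours was Mest, Meg3, Cdkn1c, Dlk1, Plagl1, H19, Grb10, Peg3 and Peg10. In untreated tumours it was Mest, Meg3, Dlk1, Cdkn1c, H19, Peg3, Plagl1, Grb10 and Peg10. Neighbours in these orders had overlapping tumour values except Mest and Meg3 (means 0.98 and 1.85 apart in DMBA-treated and untreated tumours), H19 and Grb10 in DMBA-treated tumours (0.45 apart), and Plagl1 and Grb10 in untreated tumours (1.57 apart).

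Features of the same gene did not always read alike. In the fit of all features, 15 of the members' 16 features were called lower in DMBA-treated tumours, where 27.5% of all features were called lower and 50.5% in either direction. In untreated tumours 9 of 9 were, beside 30.1% lower and 56.9% in either direction. For Plagl1 in DMBA-treated tumours, the feature of the transcript BC065150 read -4.80 ± 0.94 (-4.31, -4.17, -4.70, -4.36 and -6.44 in tumours 1 to 5), and that of the transcript NM_009538 read -1.78 ± 0.46. The untreated table has a feature for the second transcript only, at -2.45 ± 0.29. Set against it, the DMBA mean of Plagl1 was 0.84 lower by the gene average and 0.66 higher by the shared transcript, where the groups overlapped.

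The 3 Peg3 features of the DMBA table averaged -3.07 ± 0.31, -1.42 ± 1.59 and -1.14 ± 0.15 (n = 5). The feature of the transcript AK053523 read -1.93, -3.99, -0.40, -0.14 and -0.66 in tumours 1 to 5 and was the member feature that was not called (adjusted p = 0.0759). The other 2 Peg3 features carry the same transcript number as the Peg3 feature of the untreated table, which read -2.75 ± 0.65. Of them, the higher did not overlap the untreated values and the lower did.

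For Grb10, all 3 features of the DMBA table carry the transcript number of the untreated feature. They read -2.87 ± 0.36, -2.57 ± 0.16 and -1.24 ± 0.26 (n = 5), beside -0.88 ± 0.23 (n = 6) in the untreated table. The third overlapped the untreated values and the others did not. For H19 the features read -3.13 ± 0.31 and -2.22 ± 0.13 (n = 5), and only the second shares its transcript number with the untreated feature, at -3.20 ± 0.33. The Dlk1 features read -3.95 ± 0.19 and -3.53 ± 0.20. Sharing a transcript number does not mean sharing a probe, and probe sequences were not used here.

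**Figure D3:**
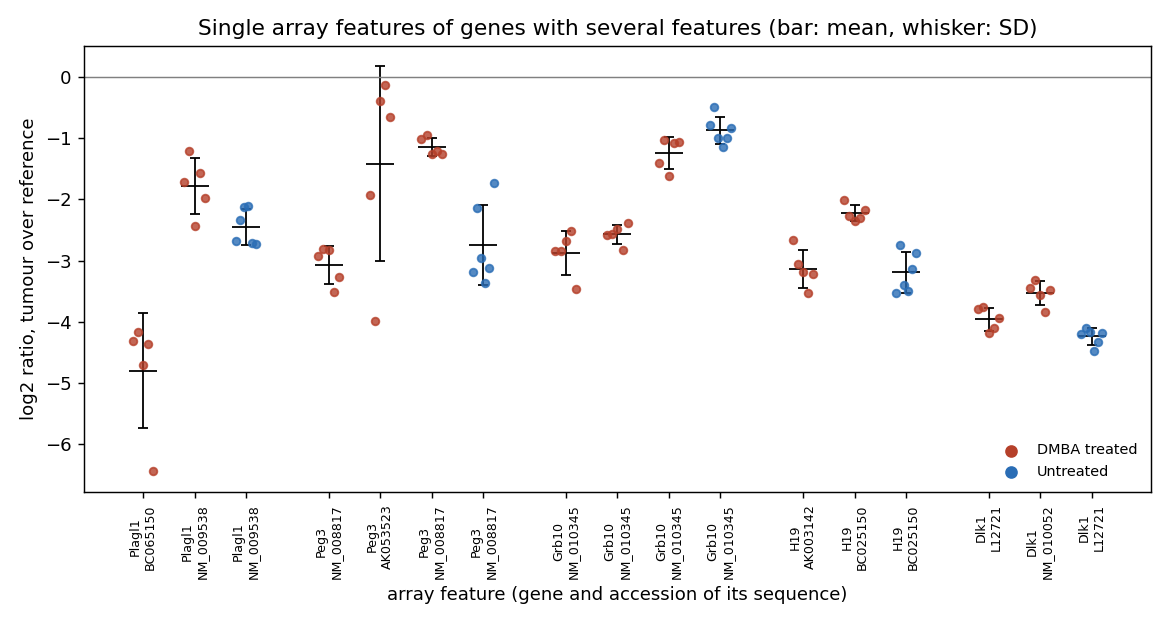
Log2 ratio of tumour over reference (vertical axis) in single array features (horizontal axis, gene and transcript) for the 5 members with several features in the table of DMBA-treated tumours (red points, n = 5), beside their feature in the table of untreated tumours (blue points, n = 6); bars are means and whiskers SD. The Plagl1 features of the DMBA table lie 3.01 apart, and those of Grb10 and Peg3 1.63 and 1.93.

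The DMBA-treated and untreated tumours lie in separate tables of different array designs, so treatment and array cannot be told apart and no test was made between the groups. In the gene averages, Mest was 1.08 higher and Grb10 1.35 lower in DMBA-treated tumours, with no overlap. These are 2 of 9 members that did not overlap and lay at least 1 apart, where 8.34% of all genes in both tables did. Dlk1 did not overlap either, at 0.50 higher in DMBA-treated tumours, which makes 3 of 9 beside 18.2% of all genes. Peg10 was 1.03 lower and Peg3 0.87 higher in DMBA-treated tumours, both with overlap. With the first feature of each gene in place of the average, 4 members did not overlap and lay at least 1 apart (Mest, Peg3, Plagl1 and Grb10), where 10.8% of all genes did so, and 5 did not overlap (20.0% of all genes). With only features whose transcript number is in both tables, Dlk1 overlapped (0.28 higher) and H19 did not (0.97 higher). In that setting 3 members did not overlap (16.8% of 15660 genes), and 2 of them lay at least 1 apart (7.22%).

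Marker genes of the cell types a mammary tumour can hold were read in the same arrays. Luminal epithelial markers were above the reference in 8 of 9 genes in each group (medians by tumour 2.55 to 2.98 in DMBA-treated and 1.88 to 2.46 in untreated tumours), where 26.1% and 28.8% of all genes were called higher. The markers not called, named after their values were seen, were the cadherin gene Cdh1 in DMBA-treated tumours (-0.13 ± 1.19, n = 5) and the splicing regulator gene Esrp1 in untreated tumours (-0.15 ± 0.43, n = 6). Of all genes, 31.7% were called lower in DMBA-treated and 32.1% in untreated tumours, which stands beside each count of lower markers that follows. Fibroblast markers were lower in 8 of 9 measured genes of DMBA-treated tumours and in 9 of 9 of untreated tumours. Their medians by tumour were -4.14 to -2.94 and -3.91 to -2.70. Adipocyte markers were lower in 5 of 6 measured genes in each group, with medians by tumour of -4.55 to -3.74 and -4.23 to -3.55. Muscle markers were lower in 5 of 7 and 6 of 7 genes, with medians by tumour of -3.53 to -2.58 and -3.71 to -1.90. Among them, Acta1, Ckm, Myh4 and Mylpf also belong to the organ genes that served to choose the likely sign of all ratios. Their low values are therefore no independent reading of muscle cells. Of the remaining muscle markers, Myog was called lower in both groups, Myod1 in untreated tumours only and Pax7 in neither. Endothelial markers were lower in 6 of 6 and 5 of 6 genes, and basal markers in 7 of 7 in each group. Macrophage, T and NK cell, and placenta markers lay near the reference, with list medians of 0.08, 0.10 and 0.27 in DMBA-treated and 0.34, -0.12 and 0.04 in untreated tumours. Of 3 macrophage markers measured in DMBA-treated tumours 1 was called higher, and of 4 in untreated tumours 2 were called higher and 1 lower. Of 5 T and NK cell markers 2 and 1 were called lower, and of 3 placenta markers measured 1 was called higher in each group. For lists this short, these T and NK cell and placenta counts are not far from the shares over all genes. In bulk tumour RNA, fewer cells of a type and less RNA per cell cannot be told apart.

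The median of the 9 members by tumour was -3.01, -2.69, -3.57, -2.97 and -3.71 in DMBA-treated tumours 1 to 5. In the first 4 of these it is the Plagl1 average, and without Plagl1 the median ran from -3.37 to -3.10 over the 5 tumours. In untreated tumours it ran from -3.49 to -2.74, and without Plagl1 from -3.98 to -3.31. It was highest in untreated 2 either way, where the muscle median (-1.90) and the adipocyte median (-3.55) were highest of the 6. Peg3 and Peg10 were highest of the untreated group in untreated 6, where the fibroblast median was highest (-2.70), and in untreated 2. Plagl1, however, was lowest of that group in untreated 6 (-2.73). In the DMBA-treated group the fibroblast median was highest in tumours 1 and 2 (-2.94 and -2.98), where Peg3 and Peg10 were lowest. Whether these cell types have a part in the members' values was not tested.

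**Figure D4:**
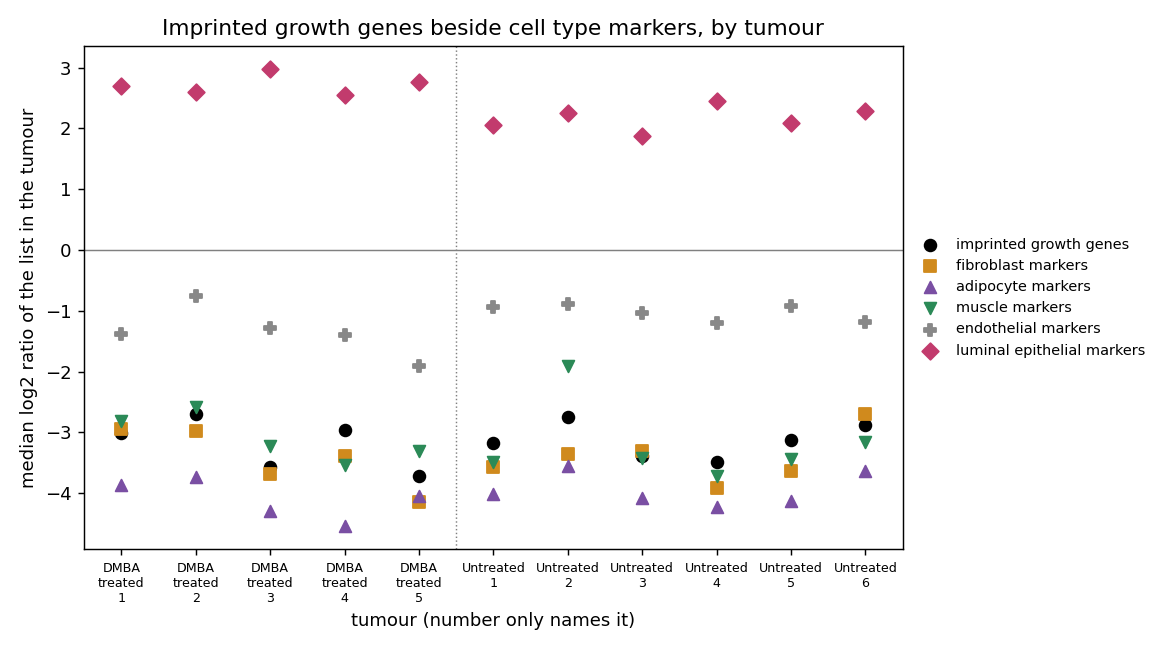
Median log2 ratio of tumour over reference (vertical axis) of the 9 imprinted growth genes and of 5 lists of cell type markers in each tumour (horizontal axis, DMBA-treated left of the dotted line, untreated right of it); each symbol is the median over the measured genes of a list. The imprinted genes lie between -3.71 and -2.69, above the adipocyte markers and below the endothelial markers in all 11 tumours, and above the fibroblast and muscle markers as well in 4 of them, while luminal epithelial markers lie above 0.

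Other imprinted genes were called in both directions. Of 44 listed, 38 were measured in DMBA-treated tumours, where 25 were called lower, 6 higher and 7 were not called, with a median mean log2 ratio of -1.28. In untreated tumours 33 were measured, with 18 lower, 6 higher, 9 not called and a median of -0.41. Of all genes, 31.7% were lower and 26.1% higher in DMBA-treated tumours, and 32.1% and 28.8% in untreated tumours, which holds for the next 2 lists too. The lowest were Nap1l5, which encodes a nucleosome assembly protein relative (-4.20 ± 0.20), and the noncoding RNA Rian (-4.18 ± 0.20) in DMBA-treated tumours, and the neuronal membrane protein gene Nnat (-3.34 ± 0.24) and Sgce, the epsilon-sarcoglycan gene (-3.29 ± 0.05), in untreated tumours. Phlda2, a maternally expressed gene that limits placental growth, was highest in DMBA-treated tumours and second in untreated tumours, at 2.90 ± 0.31 (n = 5, adjusted p = 4.55e-06) and 1.61 ± 0.40 (n = 6, adjusted p = 9.19e-06). Igf2r came next in DMBA-treated tumours. In untreated tumours Copg2, a subunit of the vesicle coat, was above Phlda2 at 1.83 ± 0.35 (n = 6, adjusted p = 1.81e-06).

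Genes listed for keeping, copying, setting or removing imprints lay on both sides of the reference. In DMBA-treated tumours 14 of 16 were measured, 6 higher, 3 lower and 5 not called (median 0.19). In untreated tumours 15 were measured, 5 higher, 2 lower and 8 not called (median 0.25). These are 6 of 14 and 5 of 15 higher, and the second lies near the share over all genes. Not all of the higher genes keep imprints. In DMBA-treated tumours they include Tet1, Tet2 and Tet3, which oxidise methylcytosine. In untreated tumours they include Tet3 and the Dnmt3b relatives Dnmt3a and Dnmt3l. Dnmt1, the methyltransferase that copies methylation at replication, was the highest in each group, at 1.06 ± 0.23 (n = 5, adjusted p = 0.000253) and 0.80 ± 0.33 (n = 6, adjusted p = 0.000448). Dnmt3b, which sets new methylation, was at -0.98 ± 0.40 (n = 5, adjusted p = 0.00194) and -0.82 ± 0.20 (n = 6, adjusted p = 6.03e-05). Also named by rank were the methylcytosine oxidase gene Tet1 (0.89 ± 0.29) and the insulator protein gene Ctcf (-0.66 ± 0.22) in DMBA-treated tumours, and Uhrf1, which guides Dnmt1 (0.64 ± 0.18), and the zinc finger gene Zfp445 (-0.82 ± 0.57) in untreated tumours.

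Fetal genes that are not imprinted were mostly low as well. The list is not of growth genes alone, and Afp in it is also listed as a fetal liver marker. Of 13 listed, 11 were measured in DMBA-treated tumours (9 lower, 1 higher, 1 not called, median -2.22) and 9 in untreated tumours (6 lower, 3 not called, median -1.66). The fetal plasma protein gene Afp was lowest in both groups, at -6.96 ± 0.47 (n = 5) and -5.41 ± 0.14 (n = 6). It was followed by Gpc3, a glypican that restrains growth, at -4.80 ± 0.57 in DMBA-treated tumours, and by the growth factor gene Mdk, at -3.03 ± 0.22 in untreated tumours. The higher gene was the transcription factor gene Plag1, a relative of Plagl1, at 0.53 ± 0.38 in DMBA-treated tumours (n = 5, adjusted p = 0.0246), while in untreated tumours it was called lower at -0.44 ± 0.31 (n = 6, adjusted p = 0.0109).

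In the gene averages, Peg10 and Peg3 had the widest spread of the members when the SD within groups was pooled over both (0.62 and 0.56). In DMBA-treated tumours the Peg3 average includes the feature that was not called (SD 1.59), beside features with SD 0.31 and 0.15. The nearest genes given below rest on the same averages. For Peg10 the wide spread comes from DMBA-treated tumours (SD 0.87). In untreated tumours its SD of 0.29 was below those of Peg3 (0.65), Cdkn1c (0.61), Mest (0.39) and H19 (0.33). The genes whose 11 tumour values lay nearest to those of Peg10, by root mean square difference over 16350 genes, were the phosphate transporter gene Slc17a1 (0.33), the calcium channel subunit gene Cacnb2 (0.37) and Nav1 (0.37). Nearest to Peg3 were the water channel gene Aqp4 (0.33), the transcription factor gene Ebf1 (0.39) and the ephrin gene Efnb1 (0.44). With so many genes and 11 values each, some must lie near, and these names are a description of the values alone.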

How the data were processed

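Tumour and whole mouse reference RNA shared each 2-colour array. The authors deposited log ratios, taken as log2 since they run from -10.70 to 8.37; their background correction, normalization and filters are not given in the sources used here. Signals were not used, so the number of arrays limits the precision. Array medians lay between -0.013 and 0.008 and correlations between arrays of a table at 0.789 or above. The tumour dye is not given per the labels. Organ genes fixed the likely direction as tumour over reference, with medians by array of -4.24 to -3.18 (liver), -3.83 to -2.43 (skeletal muscle) and -4.02 to -1.99 (brain).

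Features with 1 symbol in the platform annotation were averaged per gene (19087 and 16887 genes), with symbols checked by Entrez gene in GRCm38.p6. Tables were fitted separately (limma 3.58.1, R 4.3.3; lmFit with an intercept, then eBayes), with the code checked on simulated data. Members and lists were chosen with earlier results of these data known. Named list genes are the 2 highest and 2 lowest called in each group, plus Igf2 and Igf2r; likeness is given for the 2 most variable members. DMBA-treated 3 and 4 share a number in their titles, unexplained by the labels.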

Additional observations from a re-analysis of the deposited data

Results flagged for a closer look

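A single tumour stood apart from its group in 2 of 77 sets of values examined, where chance gives about 1 in 20. The Plagl1 feature of the transcript BC065150 read -6.44 in DMBA-treated 5, while the other 4 tumours lay between -4.70 and -4.17. Nap1l5 read -0.97 in untreated 4, while the other 5 lay between -1.92 and -1.64.

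The groups lay on opposite sides of the reference for 2 named genes, in all tumours. Plag1 was above it in all 5 DMBA-treated tumours and below it in all 6 untreated tumours, with means 0.98 apart. Zfp445 did the same, with means 1.24 apart. These differences were not tested, since treatment and array design cannot be told apart.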

How the results depend on the processing

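The members' ratios were recomputed with the median or the first of a gene's features, arrays centred on their medians, quantile normalization, zeros as missing, a robust prior, a test against 1.5-fold, DMBA-treated 3 and 4 as 1 tumour, each tumour left out, and (chosen after seeing the data) only features whose transcript number is in both tables. Of 252 such values 0 changed sign and 251 kept their call, while Peg10 in untreated tumours lost it against 1.5-fold. Many of these values could not change sign. Each member has 1 feature in the untreated table, so the choice of feature leaves its mean there as it is. Member features hold no zeros, and the robust prior and the test against 1.5-fold do not alter a mean. Members called stayed at 9 in each group without any 1 tumour, while the genes called ran from 9792 to 10660 (DMBA-treated) and from 9263 to 9979 (untreated). Against 1.5-fold, 5082 and 4056 genes were called in place of 11031 and 10281, as the threshold is stricter. With the first feature of a gene, members without overlap rose from 3 to 5, and from 2 to 4 where means lay at least 1 apart, while the shares over all genes rose from 18.2% to 20.0% and from 8.34% to 10.8%. No paired analysis was possible because the tumour numbers are in accession order and pair nothing. Signal over background is unknown, so a dim feature cannot be told from a bright one.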

Other observations

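The imprinted genes beside the members on the chromosome were read after their values were seen, over listed genes within 1 Mb in GRCm38.p6. Only some of them are described in detail. Among the rest, Ascl2 near Cdkn1c and H19 was called higher in both groups. Zim1 and Usp29 beside Peg3, and Tfpi2 and Asb4 near Peg10, were called lower in both. Calcr near Peg10 was called lower in DMBA-treated and higher in untreated tumours. Next to Cdkn1c, whose ratio was -4.08 and -3.95 in DMBA-treated and untreated tumours, lie 2 maternally expressed genes that were above the reference in both groups. The transporter gene Slc22a18 was at 0.58 ± 0.42 (n = 5, adjusted p = 0.0224) and 1.07 ± 0.57 (n = 6, adjusted p = 0.000952), and Phlda2 at 2.90 ± 0.31 and 1.61 ± 0.40. Kcnq1, on the other side of Cdkn1c, was at 0.21 ± 0.40 and 0.26 ± 0.23 and was not called in either group (adjusted p = 0.308 and 0.0551). Low ratios therefore did not extend to every imprinted gene of this stretch of chromosome 7.

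Near Dlk1 and Meg3, the noncoding RNAs Rian and Mirg read -4.18 ± 0.20 and -3.98 ± 0.31 in DMBA-treated tumours (n = 5), close to Meg3 at -4.14 ± 0.30. In the untreated table Mirg read -0.02 ± 0.11 (n = 6, adjusted p = 0.857) while Meg3 read -4.36 ± 0.25. Mirg thus differed by far more between the tables than Dlk1 or Meg3 did, and the cause was not tested. Dio3 of the same stretch also read lower in DMBA-treated than in untreated tumours, at -2.23 ± 1.38 and -0.19 ± 0.69. Such differences were not particular to Mirg. Of the fetal genes that are not imprinted, Ptn read -3.49 and -0.02, while the brain gene Tubb3 went the other way, at -1.68 and -5.50. Sgce, whose start lies next to that of Peg10 and which is also read from the paternal copy, was at -3.30 ± 0.43 (n = 5) and -3.29 ± 0.05 (n = 6), lower than Peg10 in each group. Copg2, which overlaps the end of Mest, was above the reference at 0.67 ± 0.29 (n = 5, adjusted p = 0.00414) and 1.83 ± 0.35 (n = 6), in tumours where Mest was the lowest member.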
